A study of Mus musculus with 8 samples.

Results

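The genes described here are 9 regulators of the multiciliated cell programme, Foxj1, Rfx2, Rfx3, Gmnc, Mcidas, Myb, Trp73, Ccno and Deup1, taken by name from a table of raw read counts that lists 27179 genes by Entrez Gene identifier. All 9 were present in the table. The RNA came from lungs of female C57BL/6 mice (C57BL/6J in the study's methods) aged 18 to 22 weeks that carried Eml4-Alk tumors, lesions started 11 to 12 weeks earlier by an adenovirus that delivers Cas9 and a pair of guide RNAs into the airways to join the Eml4 and Alk genes. Each mouse was given 4.5 nmol of QZ1, a PEGylated Cy5 probe that becomes fluorescent and binds nearby cells once a protease cuts its linker, and the lungs were removed after 2 h. The sort kept live cells without CD45 or CD11b and divided them into a QZ1-hi population (QZ+ in the sample labels) and a QZ1-lo population (QZ- in the labels) by QZ1 signal gated against EpCAM, and 4 libraries of each were sequenced. Both populations therefore share the tumor genotype, the probe and the depletion of blood cells, and tumor and surrounding lung tissue both entered the cell suspensions. No library from a healthy lung was part of the comparison, which asks how cells that bear the cleaved probe differ in gene expression from those that do not.

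Multiciliated cells line the airways and move mucus with many motile cilia, each grown from its own basal body. When Notch signaling falls in a progenitor, the geminin relatives Gmnc and Mcidas bind E2F and DP factors and start the programme, which includes the transcription factors Myb, Trp73 and Foxj1 and the atypical cyclin Ccno. Deup1 then builds deuterosomes, the platforms on which centrioles multiply outside the normal cycle, while Foxj1 and the RFX factors switch on genes of the motile cilium. Gmnc, Mcidas and Deup1 are known mainly from cells that are still differentiating, and Foxj1 is also kept on in mature ciliated cells.

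Total counts ranged from 18380918 to 26847938 per library. Mitochondrial and ribosomal RNA genes took 39.5% to 58.4% of them in QZ1-hi and 30.2% to 47.3% in QZ1-lo. A fit without these genes called 5 regulators lower, beside 1361 of all genes, as the main fit below called 5 beside 1280. It put the log2 fold change of Foxj1 at -2.09, against -2.07 in the main fit. Both fits were scaled by TMM and tested 15532 and 15583 genes, so leaving these genes out could move the values little. The part of the unequal mitochondrial and ribosomal share in the levels below was not tested. Levels are given as CPM, counts relative to library size after TMM scaling in edgeR, and 3 counts, used here as the floor of detection, corresponded to 0.0894 to 0.179 CPM. The endothelial markers Cdh5, Pecam1, Cd93, Ptprb and Plvap summed to between 1018 and 2311 CPM in QZ1-hi and between 108 and 329 CPM in QZ1-lo. Epcam, the epithelial adhesion gene whose protein was stained for the gate, lay between 45.05 and 77.4 CPM in QZ1-hi and between 115 and 153 CPM in QZ1-lo (log2 fold change -1.17, SE 0.19, adjusted p = 0.00158, edgeR). In bulk RNA from sorted cells, fewer cells of a type and less RNA per cell cannot be told apart.

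Before their levels, the regulators were compared for the letters that RFX factors read, since some of these genes are themselves RFX factors. Promoter windows from RefSeq (GRCm38.p6, 250 bases before to 50 bases after a start) matched 8 of the 9 regulators, with 11 windows in all, and Foxj1 had none. The core of the RFX X-box, GTTGCC, was searched on both strands. It stood in 6 of the 11 windows, those of Rfx2, Rfx3, Mcidas, Trp73, Ccno and Deup1, and in 12.5% of all 32851 windows. In 4 of these the core lay upstream of the RefSeq start, and these stretches are shown because they let the core be seen in its surroundings, with the core in capitals (for Deup1 as its reverse complement).
Ccno, 1 core, chr13:112987552-112987628, plus strand: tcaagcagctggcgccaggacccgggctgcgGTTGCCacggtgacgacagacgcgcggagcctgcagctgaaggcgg
Mcidas, 1 core, chr13:112993633-112993718, plus strand: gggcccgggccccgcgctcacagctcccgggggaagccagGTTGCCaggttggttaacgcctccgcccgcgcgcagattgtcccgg
Rfx2, 1 core, chr17:56831079-56831164, minus strand: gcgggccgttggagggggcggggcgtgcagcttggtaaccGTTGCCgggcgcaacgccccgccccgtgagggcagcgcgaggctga
Deup1, 1 core, chr9:15627880-15627965, minus strand: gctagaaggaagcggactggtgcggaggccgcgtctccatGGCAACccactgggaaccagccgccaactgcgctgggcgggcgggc
Relative to the RefSeq start of its window, the core began at position -219 in Ccno, -195 in Mcidas, -116 in Rfx2 and -79 in Deup1. The gene coordinates given below come from GENCODE M21, whose Deup1 model begins before this RefSeq start. The Deup1 core lies inside that model and is upstream only by the RefSeq start. The E2F letters TTCCCGC were found in windows of Deup1 and Trp73 (4.6% of all windows), and the forkhead letters TGTTTAC in that of Myb (3.65% of all windows). The MYB letters TAACGG, held by 2.76% of all windows, were in no window of a regulator. No match overlapped another. These matches describe letters within short windows and are not evidence of binding.

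Most of the regulators had less RNA in QZ1-hi than in QZ1-lo cells. Of the 8 that passed the filter on low counts, all but Gmnc, 5 fell at an adjusted p under 0.05 in edgeR's quasi-likelihood test over 15583 genes (Foxj1, Rfx2, Rfx3, Myb and Trp73), where 8.21% of all genes tested were called lower. The log2 fold changes of the 8 ran from -2.78 to -1.01, with a median of -1.99 against 0.02 for all genes tested. In 7 of the 9 every QZ1-hi library lay below every QZ1-lo library, a pattern found for 10.7% of all genes tested, and the exceptions were Gmnc and Ccno. The number called was 5 with DESeq2's size factors and 7 with the DESeq2 Wald test. Of all genes, 1312 and 1606 were called lower in these fits, against 1280 in the main fit. Scaling by library size only, which moved the median of all genes to -0.44, gave 8, beside 2509 of all genes. Without QZ1-hi replicate 2, the library of its population with the most ciliated cell marker RNA, 7 were called, all but Rfx2, beside 1201 of all genes.

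**Figure D1:**
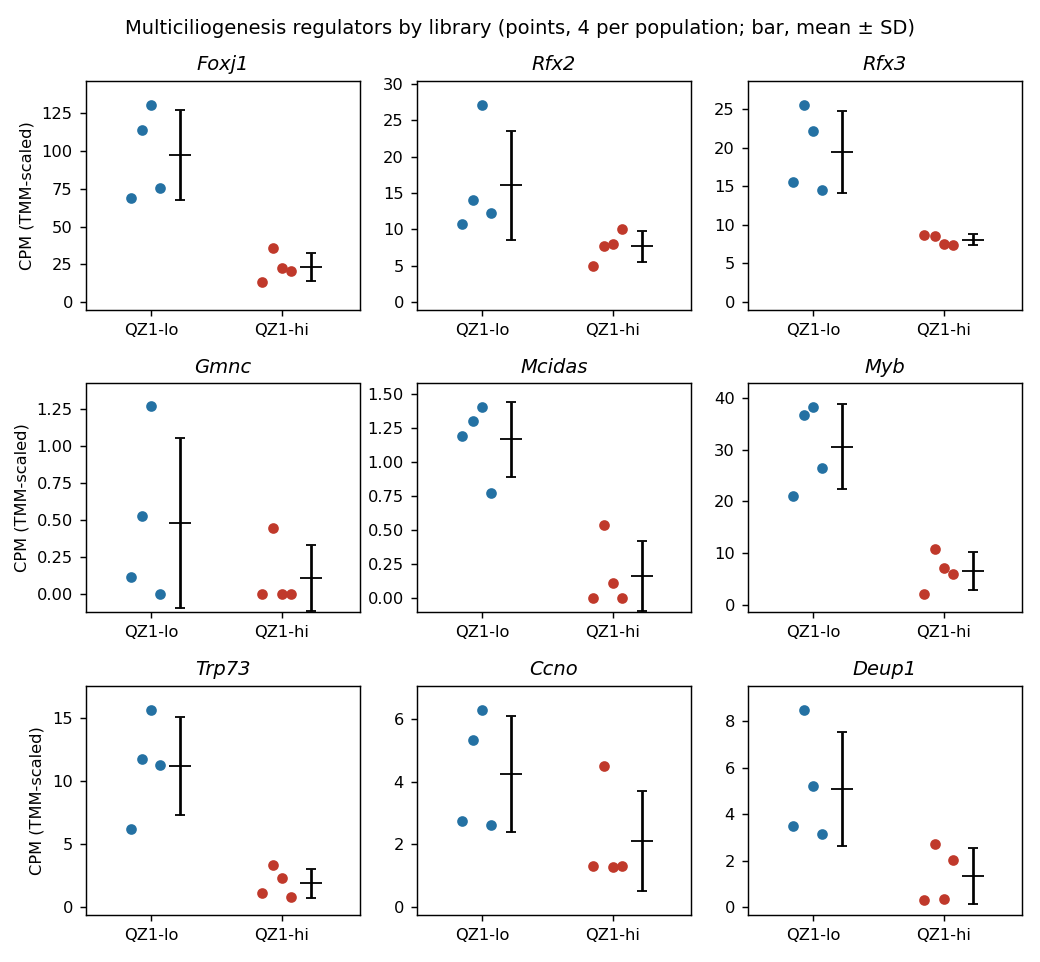
TMM-scaled CPM of the 9 regulators in the 4 QZ1-lo (blue) and 4 QZ1-hi (red) libraries, points in replicate order from left to right, with the mean and SD in black and a separate axis for each gene that takes in 0 CPM (lower ends of the SD reach under 0 for Gmnc and Mcidas). The 2 populations do not overlap for 7 genes. For Ccno, QZ1-hi replicate 2 reaches into the range of QZ1-lo, and for Gmnc, with 0 CPM in QZ1-lo replicate 4, all QZ1-hi libraries lie within it.

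Foxj1 (Entrez Gene 15223, chromosome 11, 116330704 to 116335399, minus strand, GRCm38), the forkhead factor that directs motile cilium genes, was at 13.4, 35.8, 22.8 and 20.7 CPM in QZ1-hi replicates 1 to 4 and at 68.7, 114, 131 and 75.5 CPM in QZ1-lo replicates 1 to 4. The lowest QZ1-lo library stood well above the highest QZ1-hi library, replicate 2. QZ1-hi averaged 23.2 ± 9.3 CPM (SD, n = 4), against 97.3 ± 30.01 CPM in QZ1-lo. Foxj1 fell by 2.07 on the log2 scale (SE 0.30, adjusted p = 0.000849, edgeR), a level 4.2-fold lower in QZ1-hi. The value lay between -2.38 and -1.88 when each library was left out in turn.

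The RFX factors, winged-helix proteins that bind X-box letters in promoters of ciliary genes, gave smaller log2 fold changes than Foxj1. The test of that difference, given with the ratios below, did not pass after adjustment, but the few possible assignments left no room for it to pass. Rfx3 (Entrez Gene 19726, chromosome 19, 27761721 to 28011166, minus strand) was at 8.73, 8.59, 7.57 and 7.39 CPM in QZ1-hi and at 15.5, 25.5, 22.2 and 14.5 CPM in QZ1-lo. The QZ1-hi libraries were close together, and all lay below the QZ1-lo libraries. Rfx3 fell by 1.27 on the log2 scale (SE 0.21, adjusted p = 0.00178, edgeR). Rfx2 (Entrez Gene 19725, chromosome 17, 56775897 to 56831013, minus strand) was at 4.96, 7.66, 8.04 and 10.1 CPM in QZ1-hi and at 10.7, 14.04, 27.1 and 12.2 CPM in QZ1-lo. The populations were nearly in contact, and QZ1-lo replicate 3 stood above the rest. Rfx2 fell by 1.07 on the log2 scale (SE 0.32, adjusted p = 0.0378, edgeR), and without QZ1-lo replicate 3 the value was -0.69 (adjusted p = 0.0985, edgeR). Its call was also lost without QZ1-hi replicate 1 (adjusted p = 0.0945), 2 (0.0735) or 3 (0.0631) or QZ1-lo replicate 2 (0.0600), and with limma-voom (0.0533).

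The geminin family coactivators, which open the programme, were near the limit of detection. Mcidas (Entrez Gene 622408, chromosome 13, 112993845 to 113000394, plus strand) was counted 0, 11, 2 and 0 times in QZ1-hi and 40, 32, 39 and 19 times in QZ1-lo. Every QZ1-lo library was above the 3-count floor, and only QZ1-hi replicate 2 was so in the other population. QZ1-hi averaged 0.165 ± 0.258 CPM (SD, n = 4), against 1.17 ± 0.277 CPM for QZ1-lo. For Mcidas the log2 fold change reached -2.78 (SE 1.04) without passing the threshold (adjusted p = 0.0953, edgeR). It passed in the DESeq2 Wald test (adjusted p = 0.0362), with limma-voom (0.0369), with library size only (0.0214) and without QZ1-hi replicate 2 (0.0179). In that last fit the value moved to -4.86, which is no bound because the other 3 QZ1-hi libraries held at most 2 counts. Set at the floor of 3 counts, the mean of those 3 libraries was at least 7.33-fold below the QZ1-lo mean. This holds for libraries picked because they were at or under the floor. It does not cover QZ1-hi replicate 2, at 0.543 CPM, or single QZ1-lo libraries, such as replicate 4 at 0.778 CPM. Gmnc (Entrez Gene 239789, chromosome 16, 26913553 to 26991652, minus strand) was counted 0, 9, 0 and 0 times in QZ1-hi and 4, 13, 35 and 0 times in QZ1-lo. The populations overlapped, each having a library with no read. Gmnc did not pass the filter on low counts, and a fit without the filter gave -2.04 on the log2 scale (SE 1.68) with adjusted p = 0.502 in edgeR, so that a difference was not detectable at this depth.

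Myb and Trp73, transcription factors of other families, also fell. Myb (Entrez Gene 17863, chromosome 10, 21124935 to 21160984, minus strand), a proto-oncogene that also acts in blood cell progenitors, was at 1.99, 10.9, 7.05 and 6.02 CPM in QZ1-hi and at 21.1, 36.8, 38.3 and 26.4 CPM in QZ1-lo. The 2 populations were well apart. Myb fell by 2.24 on the log2 scale (SE 0.40, adjusted p = 0.00287, edgeR). Beside this, the blood cell markers Ptprc, Cd3e, Cd79a and Itgam summed to 113 to 278 CPM in QZ1-hi and to 141 to 211 CPM in QZ1-lo, and the proliferation markers Mki67, Top2a, Ccnb1 and Cdk1 to 123 to 176 and to 74.03 to 119 CPM. Their part in the level of Myb was not tested. Trp73 (Entrez Gene 22062, chromosome 4, 154056253 to 154140208, minus strand), the p53 relative whose loss leaves airways with few multiciliated cells, was at 1.1, 3.31, 2.31 and 0.834 CPM in QZ1-hi and at 6.17, 11.8, 15.7 and 11.3 CPM in QZ1-lo. The lowest QZ1-lo library again exceeded every QZ1-hi library. Trp73 fell by 2.56 on the log2 scale (SE 0.44, adjusted p = 0.00219, edgeR), a level 5.91-fold lower. Exons of Myb overlap Gm26577, and exons of Trp73 overlap Trp73os, each on the opposite strand, and the strand setting of the counting is not given in the sources used here.

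Neither gene of centriole amplification passed the threshold. Ccno (Entrez Gene 218630, chromosome 13, 112987802 to 112990777, plus strand), a cyclin needed for the mass production of centrioles, was at 1.31, 4.49, 1.27 and 1.31 CPM in QZ1-hi and at 2.74, 5.33, 6.30 and 2.62 CPM in QZ1-lo. QZ1-hi replicate 2 stood above 2 of the QZ1-lo libraries, while the other QZ1-hi libraries lay below all of them. Ccno was at a log2 fold change of -1.01 (SE 0.51) with adjusted p = 0.222 in edgeR, and without QZ1-hi replicate 2 it was -1.72 (adjusted p = 0.0259, edgeR). Deup1 (Entrez Gene 234964, chromosome 9, 15559864 to 15627933, minus strand) was at 0.297, 2.72, 0.347 and 2.03 CPM in QZ1-hi and at 3.49, 8.50, 5.21 and 3.15 CPM in QZ1-lo. No QZ1-hi library reached the lowest QZ1-lo library. Deup1 had a value of -1.92 (SE 0.67) and adjusted p = 0.0732 in edgeR. Its adjusted p was 0.0185 in the DESeq2 Wald test, 0.00155 with library size only and 0.0356 without QZ1-hi replicate 2.

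Ccno and Mcidas are neighbours on chromosome 13 in the same orientation, 3067 bases apart, and Cdc20b, a gene needed for centriole release from deuterosomes, follows 34716 bases beyond Mcidas. The cores found in the windows of Ccno and Mcidas are printed above. Cdc20b was counted 0, 31, 0 and 0 times in QZ1-hi and 9, 22, 0 and 10 times in QZ1-lo, and did not pass the filter on low counts. QZ1-hi replicate 2 held the highest count of Cdc20b among the 8 libraries and the highest of Mcidas and Ccno among the QZ1-hi libraries.

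The regulators were then set against Foxj1 within each library, as the log2 ratio of their counts, to see whether they differed between the populations to the same extent. Relative to Foxj1, Rfx2 was higher in QZ1-hi by 1.1 on the log2 scale (SE 0.29), Ccno by 0.97 (SE 0.29) and Rfx3 by 0.87 (SE 0.31). None of these 3 ratios overlapped between the populations (two-sided p = 0.0286 in an exact permutation test, the lowest possible with 70 assignments). After Benjamini-Hochberg adjustment over the 8 ratios the value was 0.0762, so none of the 3 passed. With only 3 of the 8 at the lowest possible p, none could have passed whatever its size. The adjusted test therefore cannot decide whether these genes differ from Foxj1. The ratio of Myb to Foxj1 differed by -0.32 (SE 0.26, exact permutation test, p = 0.171), that of Trp73 by -0.58 (SE 0.33, p = 0.114) and that of Deup1 by -0.28 (SE 0.67, p = 0.686). The ratio of Mcidas, resting on few reads in QZ1-hi, differed by -1.67 (SE 0.85, exact permutation test, p = 0.114).

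Relative to Epcam, which was itself lower in QZ1-hi, the populations overlapped for all 9 regulators. Foxj1 differed by -0.90 on the log2 scale (SE 0.44, exact permutation test, two-sided p = 0.0857), Myb by -1.22 (SE 0.67, p = 0.0857) and Trp73 by -1.48 (SE 0.55, p = 0.0857). Rfx2, Rfx3 and Ccno differed by 0.20 (SE 0.47), -0.02 (SE 0.24) and 0.07 (SE 0.5), with exact permutation p of 0.686, 1 and 0.914. None of the 9 ratios passed after adjustment, the smallest value being 0.193. QZ1-hi replicate 1 had the highest Epcam of its population and the lowest Foxj1. Without it the differences shrank to -0.52 for Foxj1, -0.59 for Myb and -0.53 for Deup1 (-1.18 with it), and those of Rfx2 and Ccno grew to 0.54 and 0.36.

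**Figure D2:**
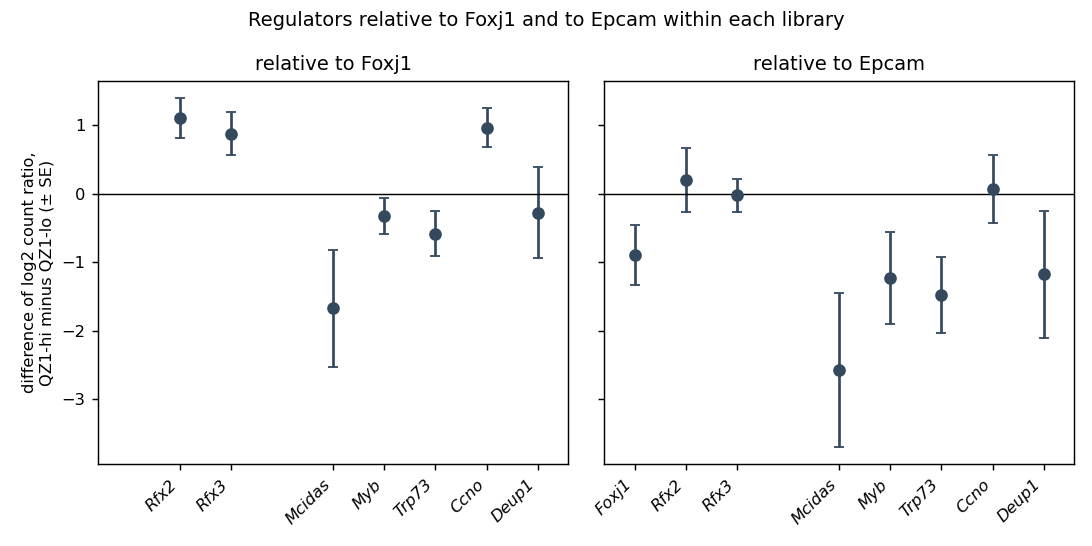
Difference between QZ1-hi and QZ1-lo in the log2 ratio of counts of each regulator to Foxj1 (left) and to Epcam (right), with the SE over 4 libraries per population; Gmnc, with no reads in 4 of the 8 libraries, is left out. Rfx2, Rfx3 and Ccno lie above 0 relative to Foxj1 and within their SE of 0 relative to Epcam. Foxj1, Mcidas, Myb, Trp73 and Deup1 lie below 0 by more than their SE relative to Epcam.

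Genes known as markers of ciliated cells moved with the regulators. At an adjusted p under 0.05 in edgeR, used for each list below, 8.21% of all genes tested were called lower and 9.88% higher. All 12 on the ciliated cell list (Fam183b, Ccdc78, Tppp3, Dynlrb2, Cdhr3, Sntn, Rsph1, Tekt1, Dnah5, Ccdc39, Ak7 and Hydin) fell, with log2 fold changes from -2.33 to -1.15 and a median of -2.03. Of these, Ccdc78, a coiled-coil protein reported at deuterosomes, fell by 2.18 (SE 0.31, adjusted p = 0.000799, edgeR) and Dnah5, a heavy chain of the outer dynein arm, by 2.21 (SE 0.36, adjusted p = 0.00166, edgeR). Their summed level was 85.9 to 279 CPM in QZ1-hi and 445 to 869 CPM in QZ1-lo. Of the other airway types, all 4 club cell markers fell, with sums of 314 to 982 and 1400 to 4019 CPM (Scgb1a1, log2 fold change -2.38, SE 0.41, adjusted p = 0.00227, edgeR). The basal cell markers Trp63, Krt5, Krt14 and Ngfr summed to no more than 7.16 CPM in any library. Of 5 alveolar type 2 markers 1 fell and 1 rose. Nkx2-1 fell (log2 fold change -0.895, SE 0.185, adjusted p = 0.00625, edgeR), and the surfactant gene Sftpc rose (0.78, SE 0.21, adjusted p = 0.0231, edgeR). Of 4 alveolar type 1 markers 3 fell, with Aqp5 at -0.98 (SE 0.16), and Pdpn rose by 0.72 (SE 0.18, adjusted p = 0.0157, edgeR). The paper lists Aqp5 under alveolar type 2, so the counts of both alveolar lists depend on where it is placed. The paper also lists Pdpn as a marker of lymphatic endothelium, so its rise cannot be assigned to epithelial cells. Apart from Pdpn, Sftpc was thus the only marker on these epithelial lists that was called higher. The part of cell type composition in the values of single regulators was not tested.

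**Figure D3:**
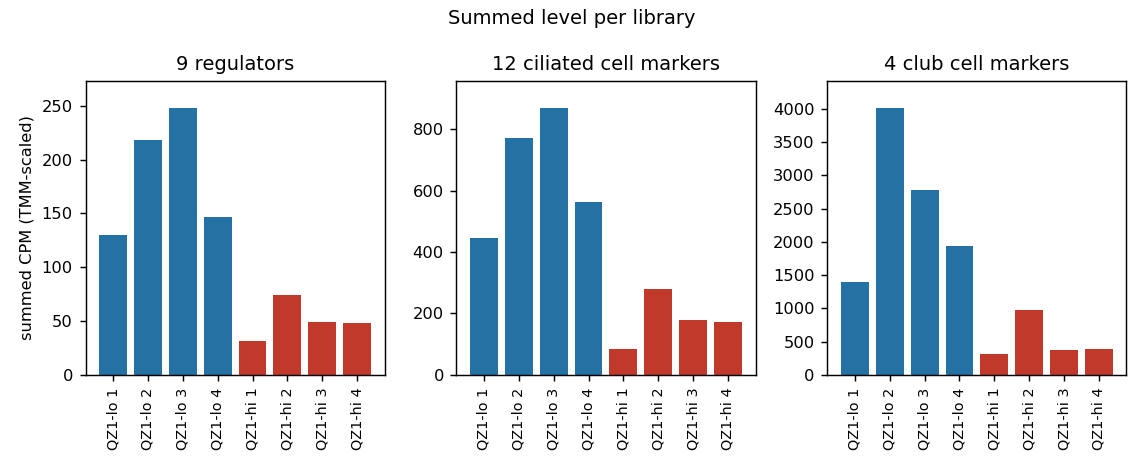
Summed TMM-scaled CPM per library of the 9 regulators, 12 ciliated cell markers and 4 club cell markers, in QZ1-lo (blue) and QZ1-hi (red), each axis from 0. In each panel all QZ1-hi libraries are below all QZ1-lo libraries, and QZ1-hi replicate 2 is the highest of its population.

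In a comparison chosen after the values were seen, the regulators were divided by the summed counts of the 12 markers in the same library. The ratio of Foxj1 differed between the populations by -0.15 on the log2 scale (SE 0.10, exact permutation test, two-sided p = 0.171). Myb differed by -0.47 (SE 0.18) and Trp73 by -0.73 (SE 0.36), without overlap (exact permutation test, p = 0.0286 each). Mcidas, on few reads in QZ1-hi, differed by -1.82 (SE 0.84) and Deup1 by -0.43 (SE 0.63), with overlap (exact permutation test, p = 0.114 and 0.514). Rfx2, Ccno and Rfx3 differed in the other direction, by 0.95 (SE 0.30), 0.82 (SE 0.34) and 0.72 (SE 0.39), with overlap (exact permutation test, p = 0.0571, 0.0571 and 0.0857). The smallest value after adjustment over the 9 ratios was 0.129, and with only Myb and Trp73 at the lowest possible p none could have passed.

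**Figure D4:**
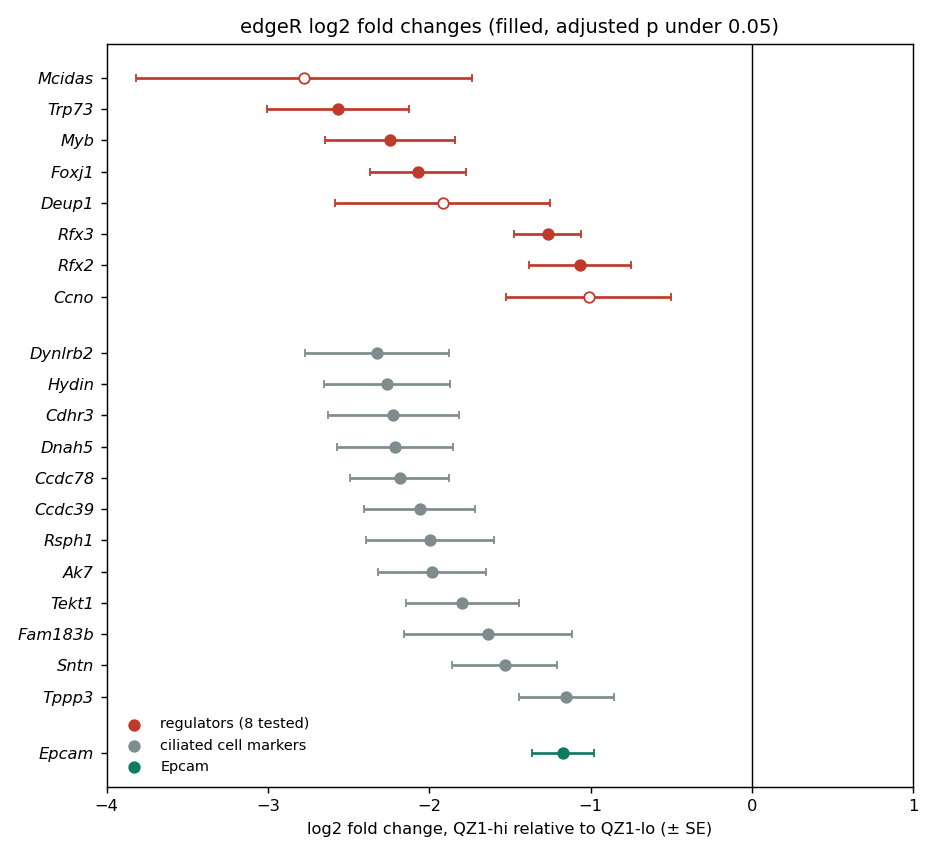
edgeR log2 fold change of QZ1-hi relative to QZ1-lo with its SE for the 8 regulators tested (red), the 12 ciliated cell markers (gray) and Epcam (green); filled points have an adjusted p under 0.05 and open points do not. Mcidas and Trp73 lie below all 12 markers, Myb, Foxj1, Deup1 and Rfx3 within their range, as does Epcam, and Rfx2 and Ccno above it.

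Levels of different genes were compared per kilobase of exon. In QZ1-lo, Foxj1 was the most abundant regulator at 37.1 ± 11.4 CPM per kilobase (SD, n = 4), above Myb at 3.43 ± 0.928 CPM per kilobase (SD, n = 4) without overlap. Rfx2, Trp73, Rfx3, Ccno and Deup1 followed, with means from 2.19 down to 1.54 CPM per kilobase, and from Myb to Deup1 each gene overlapped the next in the order. Mcidas, at 0.493 ± 0.117 CPM per kilobase (SD, n = 4), lay below Deup1, and Gmnc, at 0.0834 ± 0.0997 CPM per kilobase (SD, n = 4), below Mcidas, both without overlap. In QZ1-hi, Foxj1 was also first at 8.84 ± 3.55 CPM per kilobase (SD, n = 4), followed by Rfx2, Ccno, Rfx3 and Myb, and each gene after Foxj1 overlapped the next.

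The genes with profiles most like that of Foxj1 were sought among 14366 genes of at least 1 CPM, as the smallest root mean square difference in log2 CPM over the 8 libraries after each gene's mean was subtracted. The nearest were Ccdc78, Cdhr4, Wdr78, Tekt4 and Wdr63, with differences of 0.117 to 0.163. Among the other regulators, Myb was in place 74 with a difference of 0.284, and Trp73 in place 134 with 0.348. Deup1 (350), Rfx3 (432), Ccno (519) and Rfx2 (583) were farther away, and Gmnc and Mcidas were below the minimum level. These distances describe 8 libraries from 2 populations and share their depth and scaling.

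The partners of the regulators moved in both directions. Of 29 partner genes, 26 were tested, 5 fell (5 of 26, beside 8.21% of all genes) and 2 rose (9.88% of all genes tested were called higher), with a median log2 fold change of -0.17. Of the E2F and DP factors and their geminin regulators, Tfdp2, a DP subunit, fell by 0.41 (SE 0.13, adjusted p = 0.0488, edgeR), while the values of E2f4, at -0.08 (SE 0.15), and of E2f5, at -0.19 (SE 0.27), did not pass. Of the centriole genes, Ccdc78 and Ccp110 fell. Ccdc78 is also on the list of ciliated cell markers. Ccp110, which caps the distal ends of centrioles, fell by 0.77 (SE 0.19, adjusted p = 0.0142, edgeR). The other centriole genes tested, among them Plk4, Stil, Sass6 and Cep152, had values from -0.58 to 0.63 and did not pass. The highest was Cenpj, at 0.63 (SE 0.21, adjusted p = 0.0571, edgeR). In the Notch group, the ligand Jag1 fell by 0.72 (SE 0.16, adjusted p = 0.00836, edgeR), whereas the receptor Notch1 rose by 0.72 (SE 0.20, adjusted p = 0.0258, edgeR) and the ligand Jag2 by 0.73 (SE 0.19, adjusted p = 0.0229, edgeR). The target gene Hes1, named after its values were seen, fell by 0.53 (SE 0.17, adjusted p = 0.0492, edgeR). These calls were fragile, with 3 or 4 partner genes lower and 0 to 2 higher when a library was left out, and 8 lower and 0 higher with library size only. The number lower was 3 without QZ1-hi replicate 1 or 4 or any single QZ1-lo replicate, and the number higher was 0 without QZ1-hi replicate 1 or 3 and 1 without QZ1-lo replicate 1, 2 or 4.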

How the data were processed

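Bulk RNA-seq was performed on 4 QZ1-hi and 4 QZ1-lo libraries. The sources used here do not say which libraries come from separate mice, so p-values measure the spread between these libraries, which may be partly technical. The authors prepared stranded total RNA libraries and counted aligned reads on genes with Rsubread, and the deposited values are raw counts per gene, without normalization. The submitters' processing notes name mm10, the build of the coordinates given here (GRCm38), and DESeq2. The aligner, annotation and strand setting are not given in the sources used here. Symbols were matched by Entrez Gene identifier to RefSeq for 25275 of 27179 genes. Exon lengths and overlaps were taken from GENCODE M21.

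The main test was that of edgeR 4.0.16 in R 4.3.3 (TMM factors from 0.660 to 1.35, filterByExpr with a minimum count of 10 and a minimum total of 15, quasi-likelihood test, Benjamini-Hochberg adjustment over 15583 genes, threshold 0.05). The SE was obtained by dividing the absolute log2 fold change by the root of the F statistic. For ratios, the SE combines the SDs of both populations, and 0.5 counts were added to each gene. Log2 CPM profiles used CPM + 0.5. The procedure was tested on simulated data. Alternatives used DESeq2 1.42.0, limma 3.58.1 (voom with sample quality weights), other scalings and filters, robust shrinkage, and each library left out. The floor of 3 counts covers counting error only. The ratio to the summed ciliated cell markers was added after the data were seen.

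The regulators and lists were chosen with earlier results of these data known. Every regulator is named. Of the partner list the 6 genes of smallest p were to be named, of marker lists up to 3 examples, and the 5 genes nearest to Foxj1. E2f4, E2f5 and the centriole genes that did not pass were named for their roles after the data were seen. Protein identity between regulators was not analysed here, and 1 marker list is not reported here.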

Additional observations from a re-analysis of the deposited data

Results flagged for a closer look

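For the 9 regulators in the 2 populations, a single library was looked for that lay far from the other 3 by Dixon's criterion, which chance meets in about 1 set of 4 libraries in 20. Of the 17 sets with at most 2 libraries at 0, 1 met it. In QZ1-hi replicate 2, Ccno was at 4.49 CPM there and between 1.27 and 1.31 CPM in the other QZ1-hi libraries. Gmnc in QZ1-hi also met it, at 0.445 CPM in the same library, from 9 counts, but with no read in the other 3 libraries the criterion is met by any value above 0 and says nothing. The same library had the highest sums of its population for the ciliated cell markers (279 CPM), the club cell markers (982 CPM) and the basal cell markers (7.16 CPM), and the highest total count of all libraries, 26847938. The part of these in the Ccno and Gmnc values was not tested.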

How the results depend on the processing

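Foxj1, Rfx3, Myb and Trp73 were called lower in each of the 16 alternative fits, and the 8 regulators tested had a negative log2 fold change wherever they were tested. Mcidas and Deup1 were not tested where at least 10 counts in every library were required. The number of regulators called lower was 4 to 7 when a library was left out, 4 without QZ1-hi replicate 1 or 3 or QZ1-lo replicate 2 or 3 and 7 without QZ1-hi replicate 2. Of all genes, 938 (without QZ1-lo replicate 2) to 1201 (without QZ1-hi replicate 2) were called lower in these fits. With library size only, 8 regulators, 8 partner genes and 2509 of all genes were called lower, and 0 partner genes and 882 of all genes higher, after the shift of the median given above. Leaving out a library gave 3 to 4 partner genes lower and 0 to 2 higher, and 10 to 12 ciliated cell markers lower. With a pseudocount of 0.5 CPM in place of 0.5 counts, 4 ratios that had not passed changed sign, Rfx3 to Epcam (0.0143), Gmnc to Epcam (0.63), Mcidas to Foxj1 (0.69) and Deup1 to Foxj1 (0.30). Beside the 0.5 CPM added, the QZ1-hi means were 0.111 CPM for Gmnc, 0.165 for Mcidas, 1.35 for Deup1 and 8.07 for Rfx3. The cause was not tested. Leaving out a library also turned the sign of ratios that had not passed. Relative to Epcam the values ran from -0.0568 to 0.54 for Rfx2, -0.15 to 0.16 for Rfx3, -0.30 to 0.36 for Ccno and -1.80 to 0.0487 for Gmnc, and relative to Foxj1 from -0.70 to 0.17 for Deup1 and -0.87 to 0.86 for Gmnc. No ratio passed after adjustment with a library left out, the smallest value in the exact permutation tests being 0.0571. With so few assignments, the lowest possible p again limited what these ratios could reach. No paired analysis was possible because neither the labels nor the paper say which libraries of both populations share a mouse. The library titles are numbered in sequence, alternating between the populations, which does not state a shared mouse and was not used as a pairing. Depth limits statements on Gmnc and Mcidas.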
